A study of Homo sapiens with 6 samples.

Results

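The genes described here are 34 genes of cholesterol and fatty acid synthesis, taken by gene name from the 57914 genes of the deposited tables: 18 enzymes from acetoacetyl-CoA to cholesterol, 5 genes of the SREBP transcription factors and their regulators, 3 sterol transport genes, and 8 enzymes that make, desaturate or elongate fatty acids. All 34 were found and all 34 passed the filter on low counts. RNA was measured in A375 cells, a single established human melanoma line grown in high-glucose medium with FCS. The labels name no engineered allele and no drug for either group. All cells were stained with Aldefluor, a dye that lights up where aldehyde dehydrogenases (ALDH) act on it, and sorted by flow cytometry into the top 5% (ALDH_High, 3 libraries) and the bottom 5% (ALDH_Low, 3 libraries) of the signal. The labels do not say whether libraries of a group came from separate cultures or sorts, so p-values measure the spread between these libraries, which may be technical. In bulk RNA, fewer cells that express a gene and less of its RNA per cell cannot be told apart.

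Cells build cholesterol from acetyl-CoA through mevalonate, isoprenoids, squalene and lanosterol, and build long fatty acids from the same acetyl-CoA by carboxylation, repeated condensation, desaturation and elongation. Most of these enzymes are switched on together by the SREBP proteins, which sit in the endoplasmic reticulum with SCAP, are held there by INSIG proteins when sterols are plentiful, and otherwise travel to the Golgi to be cut and released to the nucleus. In melanoma, SREBP-driven lipogenesis and the balance of saturated and unsaturated fatty acids have been linked to the state of the cells and their response to MAPK pathway inhibitors.

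The stretches before RefSeq start sites of the genes that differed between the groups are shown first, because SREBP proteins are known to act at such sites. They come from RefSeq promoter entries (GRCh38.p14), read 5′ to 3′ on the gene's strand, up to 150 bases, leaving out bases that GENCODE 44 annotates as exon of the same gene. Capitals mark 4 motifs sought on both strands: the sterol regulatory element (the first capital run of SREBF2), the shorter SREBP site TCACNCCAC that it contains, the CCAAT box that binds NF-Y, and the GC box GGGCGG that binds SP1. NPC2 and FADS2 have 2 RefSeq starts each, of which 1 is shown. The stretches shown for NPC2 and FADS2 lie inside the GENCODE spans of these genes, and that of FADS2 also inside FADS1. For STARD4 the last base shown is base 56 before the RefSeq start. ELOVL5 is left out because only 21 bases of its entry lay outside its exons.
SREBF2 (chr22:41832955-41833104, plus strand): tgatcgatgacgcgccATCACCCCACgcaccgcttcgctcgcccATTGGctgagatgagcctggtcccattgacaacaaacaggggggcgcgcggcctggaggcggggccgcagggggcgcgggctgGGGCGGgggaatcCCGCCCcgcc
STARD4 (chr5:111512591-111512740, minus strand): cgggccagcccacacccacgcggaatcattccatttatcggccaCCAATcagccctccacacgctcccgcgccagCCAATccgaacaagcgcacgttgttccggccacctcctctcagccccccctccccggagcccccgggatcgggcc
NPC1 (chr18:23586507-23586656, minus strand): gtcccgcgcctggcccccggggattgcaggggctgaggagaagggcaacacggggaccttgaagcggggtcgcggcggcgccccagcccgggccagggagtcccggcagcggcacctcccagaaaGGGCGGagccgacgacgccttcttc
NPC2 (chr14:74493513-74493569, minus strand): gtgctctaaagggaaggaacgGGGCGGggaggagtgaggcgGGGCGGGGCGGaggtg
FADS2 (chr11:61816053-61816202, plus strand): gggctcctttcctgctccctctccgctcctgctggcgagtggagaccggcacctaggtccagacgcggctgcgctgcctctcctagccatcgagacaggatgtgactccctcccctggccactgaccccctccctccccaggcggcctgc

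The full sterol regulatory element lay 124 bases before the start of SREBF2, with an inverted CCAAT box between it and the start. In the stretches shown, STARD4 had 2 CCAAT boxes, NPC1 a GC box, NPC2 3 GC boxes of which the last 2 share a base, and FADS2 none of the motifs. In the whole 250 bases before a RefSeq start, STARD4 and FADS2 had 1 GC box each, NPC1 2 and NPC2 9, and NPC2 also had 2 CCAAT boxes. For NPC2 and FADS2, with 2 starts, each count is the highest found at any 1 start. Of 41 promoter entries for 30 of the 34 genes, SREBF2 alone held either SREBP motif in the 250 bases before the start; over all 35116 promoter entries, 0.034% held the full element and 0.883% the shorter one. A CCAAT box was found in 24 of the 41 entries (58.5%), against 32.0% of all entries and 32.9% of entries of the genes tested. GC boxes were in 35 of the 41 (85.4%), against 42.6% of all entries and 61.2% of those of the genes tested. These matches describe letters in a window and are not evidence of binding. Only matches to every fixed base of a motif were sought, so a missing match is not evidence that a gene lacks an SREBP site. FDFT1, SQLE, FASN and ACAT2 are named only.

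On GRCh38 (GENCODE 44), the 6 protein-coding genes span chr22:41833105-41907306 (SREBF2), chr5:111496033-111512590 (STARD4), chr18:23506184-23586506 (NPC1), chr14:74476192-74494177 (NPC2), chr11:61792980-61867354 (FADS2) and chr6:53267398-53349179 (ELOVL5).

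Depth was 26692868 to 37830603 counts per library. On the second principal component (14.5% of the variance), ALDH_High library 1 lay at 49.1 and ALDH_High libraries 2 and 3 at -22.0 and -32.5, so results that rest on that library are given with and without it. Other features also moved with the groups. The median of 16 G2 and M phase genes was higher in ALDH_High. Of the 16, 9 were higher past the threshold and 0 lower, where 10.8% of all genes tested were higher. The 3 with the smallest p, CDK1, UBE2C and GTSE1, had log2 fold changes of 1.66, 1.76 and 1.05. The other 7 did not pass, and of these CDC20 alone lay below 0 (-0.19). Mitochondrially encoded genes took 1.31 to 1.66% of counts in ALDH_High and 2.00 to 3.06% in ALDH_Low. Of 8 melanoma markers, SOX10, S100B and S100A1 were higher and MITF lower in ALDH_High, while PMEL, MLANA, TYR and DCT had at most 19 counts in any library. Summed CPM of the list was 658 to 887 in ALDH_High and 208 to 235 in ALDH_Low. Most of it was SOX10 (means 670 and 194 CPM), so the sum does not describe the markers as a set. The 5 white blood cell markers summed to 13.9 to 29.4 against 57.3 to 68.8 CPM, with PTPRC and CD3E at no more than 4 counts, LYZ higher (log2 fold change 1.65) and CD68 lower (-1.86). For the 5 epithelial markers the sums were 352 to 659 against 1033 to 1428 CPM, nearly all of it KRT18. KRT18 (log2 fold change -1.43) and KRT5 (-3.63) were lower, KRT14 had 0.58 without passing (adjusted p 0.108), and EPCAM and CDH1, with at most 9 and 38 counts, were too low to be tested. All 5 adipocyte markers were too low to be tested. The part of any of these in the results below was not tested.

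Of the 34 genes, 3 were higher in ALDH_High (SREBF2, STARD4 and ELOVL5) and 3 were lower (NPC2, NPC1 and FADS2) at an adjusted p below 0.05 in edgeR's quasi-likelihood test, with p-values adjusted by Benjamini-Hochberg over all 17047 genes tested. This was 17.6% of the 34, where 20.6% of all genes tested passed (10.8% higher, 9.83% lower). The median log2 fold change of the 34 was 0.0012, with 18 above and 16 below 0, and that of all genes tested was -0.013. The groups did not overlap in CPM (counts scaled by TMM to a common library size) for 8 of the 34 (23.5%), against 37.8% of all genes tested. At an unadjusted p under 0.05 there were 8 of the 34, against 5508 of all 17047 genes tested. DESeq2 called 7 of the 34 and limma on log2(TPM + 1) called 5. The shares of all genes called in these fits are not given here, so those counts describe the 34 genes only. The number past the threshold rested on the libraries used: it was 8 without ALDH_High library 1, 1 without ALDH_High library 2, 2 without ALDH_High library 3, 3 without ALDH_Low library 1, and 2 without either ALDH_Low library 2 or ALDH_Low library 3.

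**Figure D1:**
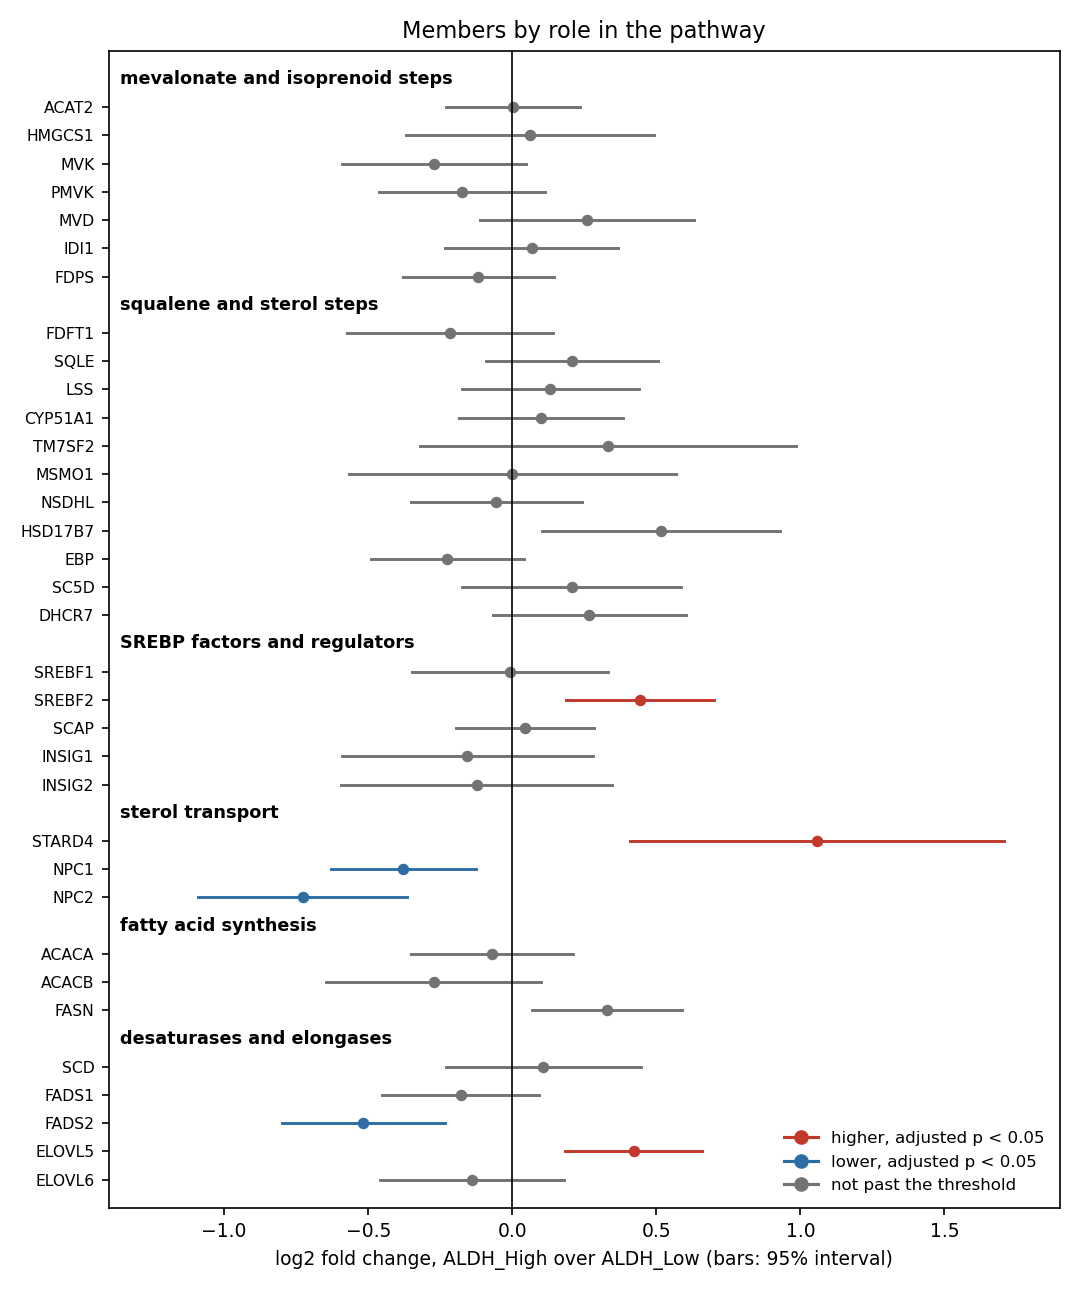
Log2 fold change of ALDH_High over ALDH_Low for the 34 genes, grouped by role, with 95% intervals from the edgeR fit; red marks the 3 genes higher and blue the 3 genes lower at an adjusted p below 0.05. The 18 enzymes of the first 2 blocks are all grey, and the 3 sterol transport genes are all coloured. Of all genes tested, 20.6% passed.

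Levels of the 34 genes are compared in TPM (a level corrected for transcript length). Farnesyl diphosphate synthase FDPS (mean over the 6 libraries 208.5 TPM) and fatty acid synthase FASN (204 TPM) stood at the top, followed by EBP (126), NPC2 (113) and SREBF1 (90.8), and ACACB (4.53) and STARD4 (2.59 TPM) were lowest. Summed over the 34, the level was 1481 ± 27.6 TPM in ALDH_High and 1474 ± 91.9 TPM in ALDH_Low (SD, n = 3). By role, the sums of the mevalonate block were 374 ± 9.13 and 380.1 ± 9.79 TPM, and those of the squalene and sterol block 325 ± 21.5 and 329 ± 16.0 TPM. Sterol transport summed to 98.3 to 120.2 TPM in ALDH_High and 148 to 191 TPM in ALDH_Low, and fatty acid synthesis to 254 to 274 and 187 to 227 TPM. The groups did not overlap in these last 2 sums, and overlapped in those of the other 4 roles. Each of these sums rested on few genes: FASN gave 230.1 and 178 TPM of fatty acid synthesis, while ACACA and ACACB had log2 fold changes below 0, and NPC2 gave 86.5 and 139 TPM of sterol transport, while STARD4 (3.54 and 1.64 TPM) was higher in ALDH_High.

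**Figure D2:**
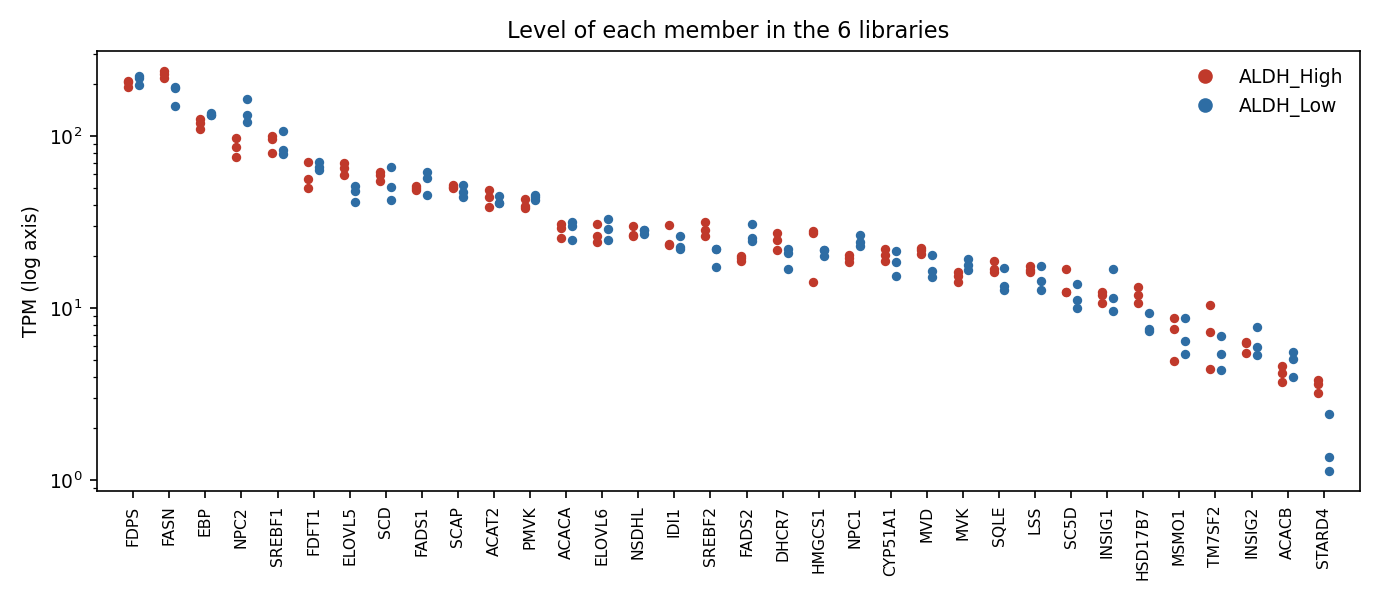
TPM of each of the 34 genes in the 6 libraries on a log axis, ordered by the mean over all libraries, with ALDH_High in red and ALDH_Low in blue. FDPS and FASN lead with means of 208.5 and 204 TPM, STARD4 is lowest at 2.59 TPM, and for most genes the colours overlap.

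None of the 7 genes from acetoacetyl-CoA to farnesyl diphosphate passed the threshold, with 0 at an unadjusted p under 0.05, 0 in DESeq2 and 0 in limma on log2(TPM + 1). HMGCS1, which makes HMG-CoA, was measured at 30.8, 53.8 and 53.8 CPM in the ALDH_High libraries, in the order 1, 2 and 3 used throughout, against 44.4, 44.7 and 43.6 CPM in the ALDH_Low ones. ALDH_High library 1 thus lay below all ALDH_Low libraries and the other two ALDH_High libraries above them. Its log2 fold change was 0.06 (95% interval -0.37 to 0.49, adjusted p 0.865); without ALDH_High library 1 it was 0.30 (adjusted p 0.0519), and without ALDH_High library 2 or library 3 it was -0.046 and -0.047. ACAT2, the cytosolic thiolase that makes acetoacetyl-CoA, was nearly level, at 68.1, 69.9 and 74.7 against 74.0, 67.6 and 70.9 CPM (log2 fold change 0.0019, 95% interval -0.23 to 0.23). ACAT2 overlaps TCP1 on the opposite strand. Use of strand in the counting is not given in the sources used here, so reads of genes that overlap on opposite strands are uncertain.

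The mevalonate kinase MVK (log2 fold change -0.27) and the phosphomevalonate kinase PMVK (-0.18) lay below 0. The decarboxylase MVD had the highest value of the block (0.26, 95% interval -0.11 to 0.63). The isopentenyl diphosphate isomerase IDI1 had 0.07, and FDPS, with 169.6, 156 and 140.0 against 154, 167 and 184 CPM, had -0.12 (95% interval -0.38 to 0.14). Adjusted p in this block lay between 0.227 (MVK) and 0.992 (ACAT2). IDI1 and FDPS have annotated pseudogene copies, as do CYP51A1, HSD17B7 and SCD, and none of the copies was expressed highly enough to be tested. FDPS overlaps RUSC1-AS1 on the opposite strand, which was lower (log2 fold change -1.09, edgeR adjusted p 0.0146). RUSC1-AS1 had means of 1.10 CPM in ALDH_High and 2.35 CPM in ALDH_Low.

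Among the 11 genes from squalene to cholesterol, 0 passed in edgeR, 1 had an unadjusted p under 0.05, and DESeq2 called 1 and limma on log2(TPM + 1) called 0. That gene was HSD17B7, the 3-keto reductase of sterol demethylation, with 13.8, 11.3 and 9.79 CPM in ALDH_High and 9.21, 7.36 and 7.69 CPM in ALDH_Low. The groups did not overlap. Its log2 fold change was 0.52 (SE 0.19, adjusted p 0.0781), and it passed in 3 of 15 alternatives, among them the DESeq2 Wald test (0.54, adjusted p 0.0493) and the fit with the replicate number as a block (0.51, adjusted p 0.0482).

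FDFT1, the squalene synthase at the branch into sterols, had 92.1, 58.6 and 65.2 CPM in ALDH_High and 86.7, 80.8 and 82.9 CPM in ALDH_Low. ALDH_High library 1 stood above all ALDH_Low libraries and libraries 2 and 3 below them, the mirror of HMGCS1. The log2 fold change of FDFT1 was -0.22 (adjusted p 0.404), and -0.41 (adjusted p 0.0176) without ALDH_High library 1. EBP, the sterol isomerase, was likewise lowest in ALDH_High libraries 2 and 3, with 79.2, 62.5 and 66.0 against 78.5, 80.6 and 83.7 CPM. Its log2 fold change was -0.23 (adjusted p 0.230), and -0.31 (adjusted p 0.0415) without ALDH_High library 1.

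The epoxidase SQLE (log2 fold change 0.21), the cyclase LSS (0.13), the demethylase CYP51A1 (0.10), the desaturase SC5D (0.21) and the final reductase DHCR7 (0.27) were above 0 without passing, with adjusted p from 0.259 (DHCR7) to 0.648 (CYP51A1). TM7SF2, a sterol reductase, varied most, from 4.14 to 8.59 CPM in ALDH_High and 3.86 to 6.43 CPM in ALDH_Low (0.33, SE 0.29). MSMO1, which removes methyl groups from the sterol ring, had 0.00040 (SE 0.25), and the decarboxylating dehydrogenase NSDHL -0.055. The 95% intervals of all 18 enzymes of these 2 blocks lay between -0.59 (MVK) and 0.99 (TM7SF2), so a change of log2 1 or more in either direction was outside each interval. TM7SF2 shares its strand with the overlapping gene VPS51, and CYP51A1 overlaps AKAP9, so their reads are uncertain.

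SREBF2, which encodes the SREBP that chiefly drives cholesterol genes, was higher in ALDH_High. It had 106, 114 and 101 CPM in ALDH_High and 83.3, 83.3 and 69.9 CPM in ALDH_Low, and the groups did not overlap. The log2 fold change was 0.44 (SE 0.12, edgeR adjusted p 0.0218), and the exact two-sided permutation p was 0.1, the smallest that 3 against 3 libraries allow. The call was lost without ALDH_High library 2 (0.41, adjusted p 0.0882), ALDH_Low library 2 (0.48, adjusted p 0.0513) or ALDH_Low library 3 (0.36, adjusted p 0.0819).

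SREBF1, whose SREBP forms chiefly drive fatty acid genes, had 192, 138 and 164 CPM in ALDH_High and 194, 143 and 159.8 CPM in ALDH_Low. Its log2 fold change was -0.0074 (95% interval -0.35 to 0.33), and library 1 was the highest of its group on both sides. SREBF1 overlaps RAI1 on the opposite strand (log2 fold change 0.22). Per length, SREBF1 exceeded SREBF2 in every library: the ratio of their TPM was 3.77, 2.52 and 3.39 in ALDH_High and 4.86, 3.58 and 4.76 in ALDH_Low. The ratios of the 2 groups overlapped (exact permutation p = 0.2, 0.4 after Benjamini-Hochberg adjustment over 4 ratios).

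SCAP, the escort of SREBP, had 116 to 134 CPM in ALDH_High and 116 to 129 CPM in ALDH_Low (log2 fold change 0.05, 95% interval -0.19 to 0.28). INSIG1 and INSIG2, the retention proteins, had log2 fold changes of -0.16 (adjusted p 0.640) and -0.12 (adjusted p 0.741). INSIG1, itself a target of SREBP, had 17.5, 14.2 and 16.0 against 23.2, 15.7 and 14.1 CPM. Its sign rested on ALDH_Low library 1, without which the log2 fold change was 0.11, and the same held for INSIG2 (0.051). The TPM ratio of INSIG1 to INSIG2 was 1.94 ± 0.0486 in ALDH_High and 1.96 ± 0.179 in ALDH_Low (SD, n = 3; exact permutation p = 0.9).

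All 3 sterol transport genes passed the threshold, 1 higher and 2 lower, where 20.6% of all genes tested passed. With only 3 genes, which differ in direction, the count does not describe sterol transport as a whole. STARD4, a small cytosolic protein that carries sterol between membranes and is a known SREBP target, had 5.09, 5.47 and 5.07 CPM in ALDH_High and 3.63, 1.67 and 2.16 CPM in ALDH_Low. The groups did not overlap, and the ALDH_Low libraries varied more. The log2 fold change was 1.06 (SE 0.29, adjusted p 0.0281, exact permutation p 0.1), a 2.08-fold higher level and the largest difference of the 34 genes. It missed the threshold without ALDH_High library 2 (1.04, adjusted p 0.0798), ALDH_High library 3 (1.09, 0.0589), ALDH_Low library 2 (0.84, 0.0901) or ALDH_Low library 3 (0.96, 0.107), and was 1.46 (0.00619) without ALDH_Low library 1.

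NPC2, the soluble lysosomal protein that takes cholesterol from digested lipoproteins, was lower in ALDH_High. It had 60.8, 48.6 and 41.9 CPM in ALDH_High and 96.6, 70.6 and 82.9 CPM in ALDH_Low, with no overlap. The log2 fold change was -0.73 (SE 0.16, adjusted p 0.0105), the smallest adjusted p of the 34 genes. Without ALDH_Low library 1 it was -0.59 (adjusted p 0.0507). NPC2 overlaps ISCA2 on the opposite strand (log2 fold change -0.16).

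NPC1, the membrane protein to which NPC2 hands cholesterol for export from the lysosome, had 57.7, 54.2 and 48.3 CPM in ALDH_High and 67.2, 73.4 and 67.7 CPM in ALDH_Low. The groups did not overlap, and the log2 fold change was -0.38 (SE 0.11, adjusted p 0.0389). RMC1, which overlaps it on the opposite strand, had -0.088. NPC1 lies on chromosome 18, where 155 expressed protein-coding genes had a median log2 fold change of -0.22, with 69.0% below 0 whether or not they passed the threshold. Its call was the least stable of the 6, passing in 5 of 15 alternatives: adjusted p was 0.0205 without ALDH_High library 1 and 0.0813 to 0.162 without any 1 of the other libraries (ALDH_High 2 or 3, ALDH_Low 1, 2 or 3), and 0.0518 with the replicate number as a block.

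**Figure D3:**
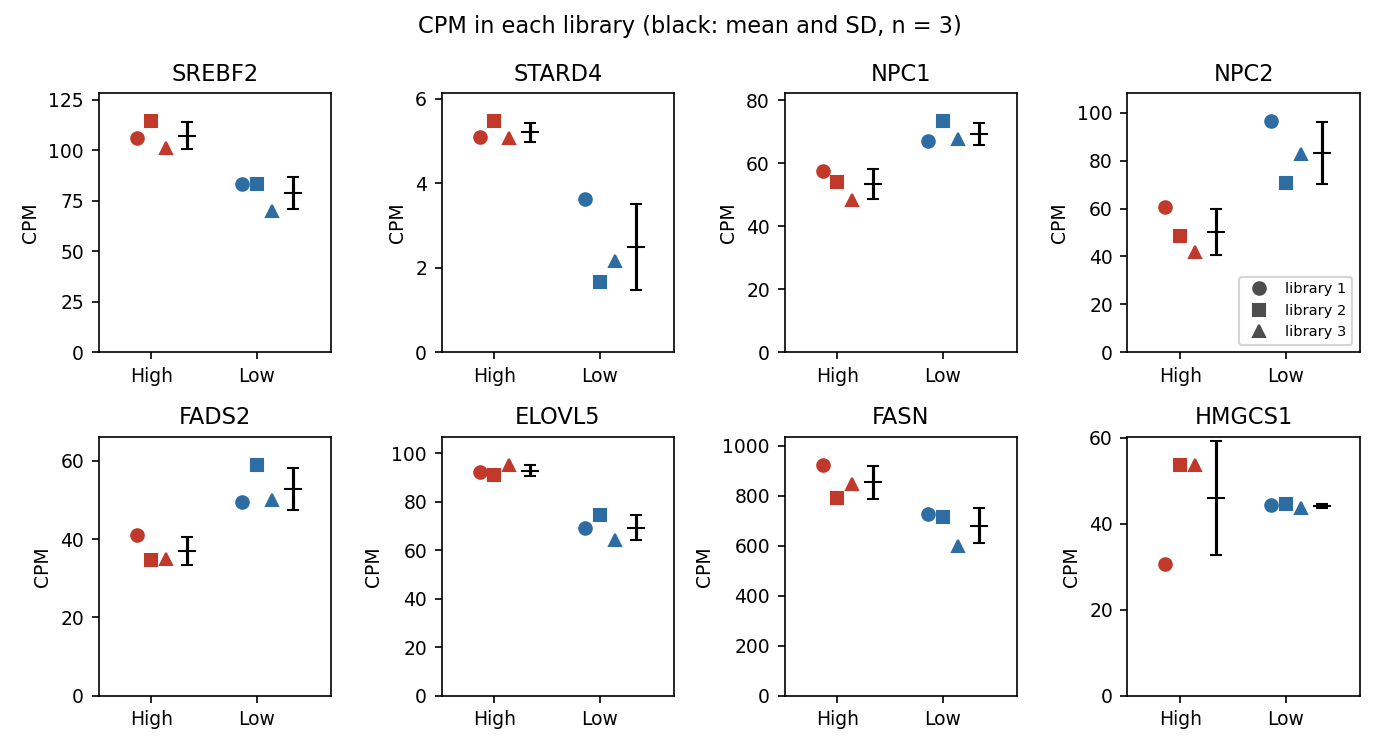
CPM in each library for the 6 genes past the threshold, FASN and HMGCS1, with the mean and SD of each group in black (n = 3); each axis starts at 0 and marker shapes give the library number. The groups are apart for the first 7 genes, while for HMGCS1 ALDH_High library 1 lies at 30.8 CPM and the other two ALDH_High libraries at 53.8 CPM.

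Of the 3 enzymes that build palmitate, 0 passed in edgeR, 1 (FASN) had an unadjusted p under 0.05, and DESeq2 and limma on log2(TPM + 1) called 0. FASN, the multi-domain fatty acid synthase, had 924, 791 and 847 CPM in ALDH_High and 727, 713 and 600.4 CPM in ALDH_Low. The groups did not overlap, but the log2 fold change of 0.33 (SE 0.12, 95% interval 0.07 to 0.59) had an adjusted p of 0.0758, and it passed in 0 of 15 alternatives (adjusted p 0.0505 to 0.235). ACACA, the cytosolic acetyl-CoA carboxylase that supplies malonyl-CoA to FASN, had -0.07 (adjusted p 0.758). The mitochondrial isoform ACACB, which limits fatty acid oxidation, had 11.2, 11.5 and 12.3 against 11.3, 15.8 and 15.2 CPM (-0.27, adjusted p 0.304). ACACB overlaps UNG on the same strand, which was lower (log2 fold change -0.36, adjusted p 0.0267). Per length ACACA exceeded ACACB 6.84 ± 0.485 times in ALDH_High and 6.08 ± 1.52 times in ALDH_Low (SD, n = 3; exact permutation p = 0.6).

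The 5 desaturases and elongases split. ELOVL5, the elongase of polyunsaturated fatty acids, was higher in ALDH_High, with 92.1, 91.1 and 95.2 CPM against 69.3, 74.6 and 64.1 CPM and no overlap. The log2 fold change was 0.42 (SE 0.11, adjusted p 0.0188). It missed the threshold without ALDH_High library 2 (0.45, adjusted p 0.0550), ALDH_High library 3 (0.42, 0.0570), ALDH_Low library 1 (0.43, 0.0600) or ALDH_Low library 3 (0.37, 0.0718).

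FADS2, the delta-6 desaturase that opens the polyunsaturated pathway ELOVL5 belongs to, was lower in ALDH_High. It had 41.0, 34.7 and 35.0 CPM in ALDH_High and 49.4, 59.0 and 49.9 CPM in ALDH_Low, with no overlap. The log2 fold change was -0.52 (SE 0.13, adjusted p 0.0161). Without ALDH_High library 2 it was -0.46 (adjusted p 0.0825), without ALDH_High library 3 -0.47 (0.0671), and without ALDH_Low library 2 -0.43 (0.0798). FADS1, the delta-5 desaturase encoded beside it on the opposite strand, had -0.18 (adjusted p 0.359). The TPM ratio of FADS1 to FADS2 was 2.48, 2.71 and 2.497 in ALDH_High and 2.39, 1.86 and 1.85 in ALDH_Low, which did not overlap (exact permutation p = 0.1, 0.4 after Benjamini-Hochberg adjustment over 4 ratios). The annotated spans of FADS1 and FADS2 overlap, and FADS2 also spans FEN1 on its own strand (log2 fold change 0.35, adjusted p 0.0659), so reads in the shared bases are uncertain.

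SCD, the stearoyl-CoA desaturase that makes monounsaturated fatty acids, had 261, 212 and 223 CPM in ALDH_High and 263, 202 and 180.2 CPM in ALDH_Low. The groups overlapped and the log2 fold change was 0.11 (95% interval -0.23 to 0.45). ELOVL6, which elongates palmitate, had -0.14 (adjusted p 0.559). Library 1 gave the highest CPM of its group for 20 of the 34 genes in ALDH_High (43.3% of all genes tested) and for 20 of the 34 in ALDH_Low (33.9% of all genes tested).

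Expressed protein-coding genes within 2 Mb of the 6 genes past the threshold were compared with their chromosomes. Over all genes tested, 10.8% were higher and 9.83% lower past the threshold, and the small counts below are to be read beside these shares. The 34 neighbours of SREBF2 had a median log2 fold change of 0.15 (4 higher, 0 lower past the threshold; chromosome 22 median 0.080). For STARD4 the median of 10 neighbours was 0.25 (2 higher, 0 lower; chromosome 5 median 0.0062), and for ELOVL5 that of 10 was 0.18 (2 higher, 0 lower; chromosome 6 median 0.017). NPC1 had 14 neighbours with a median of -0.29 (0 higher, 5 lower). The 34 neighbours of NPC2 had -0.072 (0 higher, 4 lower; chromosome 14 median -0.0013), and the 57 of FADS2 had 0.015 (7 higher, 4 lower; chromosome 11 median 0.025), above 0 where FADS2 was lower. The part of position in these results was not tested.

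Neighbouring lipid pathways were described by 7 further lists of genes outside the 34. SREBP processing and sterol sensing (the proteases MBTPS1 and MBTPS2 and others) had 0 of 9 tested genes past the threshold in edgeR, with 2 at an unadjusted p under 0.05, 0 in DESeq2 and 0 in limma on log2(TPM + 1), and a median log2 fold change of 0.12. Fatty acid oxidation had 0 of 13, with 0 at an unadjusted p under 0.05, 0 in DESeq2 and 0 in limma, and a median of -0.019. Each of the other 5 lists held genes past the threshold, at 11.1 to 36.4% of the genes tested. Over all genes tested 20.6% passed, and 5508 of 17047 had an unadjusted p under 0.05. Holding some such genes therefore does not set these lists apart.

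In the list of LXR, efflux, ester and uptake genes, 3 of 11 tested were higher and 1 lower (median 0.13). NR1H3, the sterol-sensing nuclear receptor LXR alpha, had 13.7, 9.09 and 7.80 CPM in ALDH_High and 27.6, 21.1 and 19.3 CPM in ALDH_Low. Its log2 fold change was -1.16 (SE 0.22, adjusted p 0.00482). The lipoprotein receptor VLDLR had 9.43, 9.84 and 8.77 against 5.08, 6.02 and 4.31 CPM (0.86, adjusted p 0.00957). CYP27A1, the sterol 27-hydroxylase, was higher as well (1.199, adjusted p 0.00714), as was MYLIP, the ubiquitin ligase that degrades lipoprotein receptors (0.53, adjusted p 0.0495). These 4 genes did not overlap between the groups. In the whole list 5 of the 11 tested genes did not overlap (45.5%), against 37.8% of all genes tested. MYLIP missed the threshold without ALDH_High library 1 or 3 or ALDH_Low library 2 or 3 (0.47 to 0.68 over all 6 fits with a library left out, adjusted p up to 0.159). It passed in 6 of 15 alternatives, and was also lost with upper-quartile factors, with at least 10 counts in every library and in every limma fit. The cholesterol exporter ABCA1 had 6.23, 3.15 and 4.69 against 7.65, 2.78 and 3.02 CPM. Its log2 fold change was 0.051 (95% interval -0.84 to 0.94, adjusted p 0.950), too imprecise to tell a change from none.

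Acyl-CoA and glycerolipid synthesis had 2 of 13 tested genes higher and 1 lower (median 0.16). ACSL5, an acyl-CoA synthetase of mitochondria and endoplasmic reticulum, had 0.907, 0.376 and 0.674 CPM in ALDH_High (13 to 23 counts) against 10.3, 8.20 and 7.80 CPM in ALDH_Low. That was a log2 fold change of -3.77 (SE 0.32, adjusted p 3.47e-05), or 13.6-fold lower, past the threshold in all 15 alternatives (-4.04 to -1.93). Of its relatives, ACSL3 and ACSL1 were higher, ACSL4 had a log2 fold change of 0.073 (adjusted p 0.804) with overlapping groups, and ACSL6 was too low to be tested. ACSL3, the form of lipid droplets and endoplasmic reticulum, had 135, 134 and 138 against 98.0, 84.3 and 92.2 CPM (0.57, adjusted p 0.00382, past the threshold in all 15 alternatives), and ACSL1 had 0.61 (adjusted p 0.0209). ACSL1 passed in 7 of 15 alternatives and missed the threshold without ALDH_High library 2 or 3 or any 1 of the ALDH_Low libraries (0.45 to 0.77 over all 6 fits, adjusted p up to 0.0703).

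**Figure D4:**
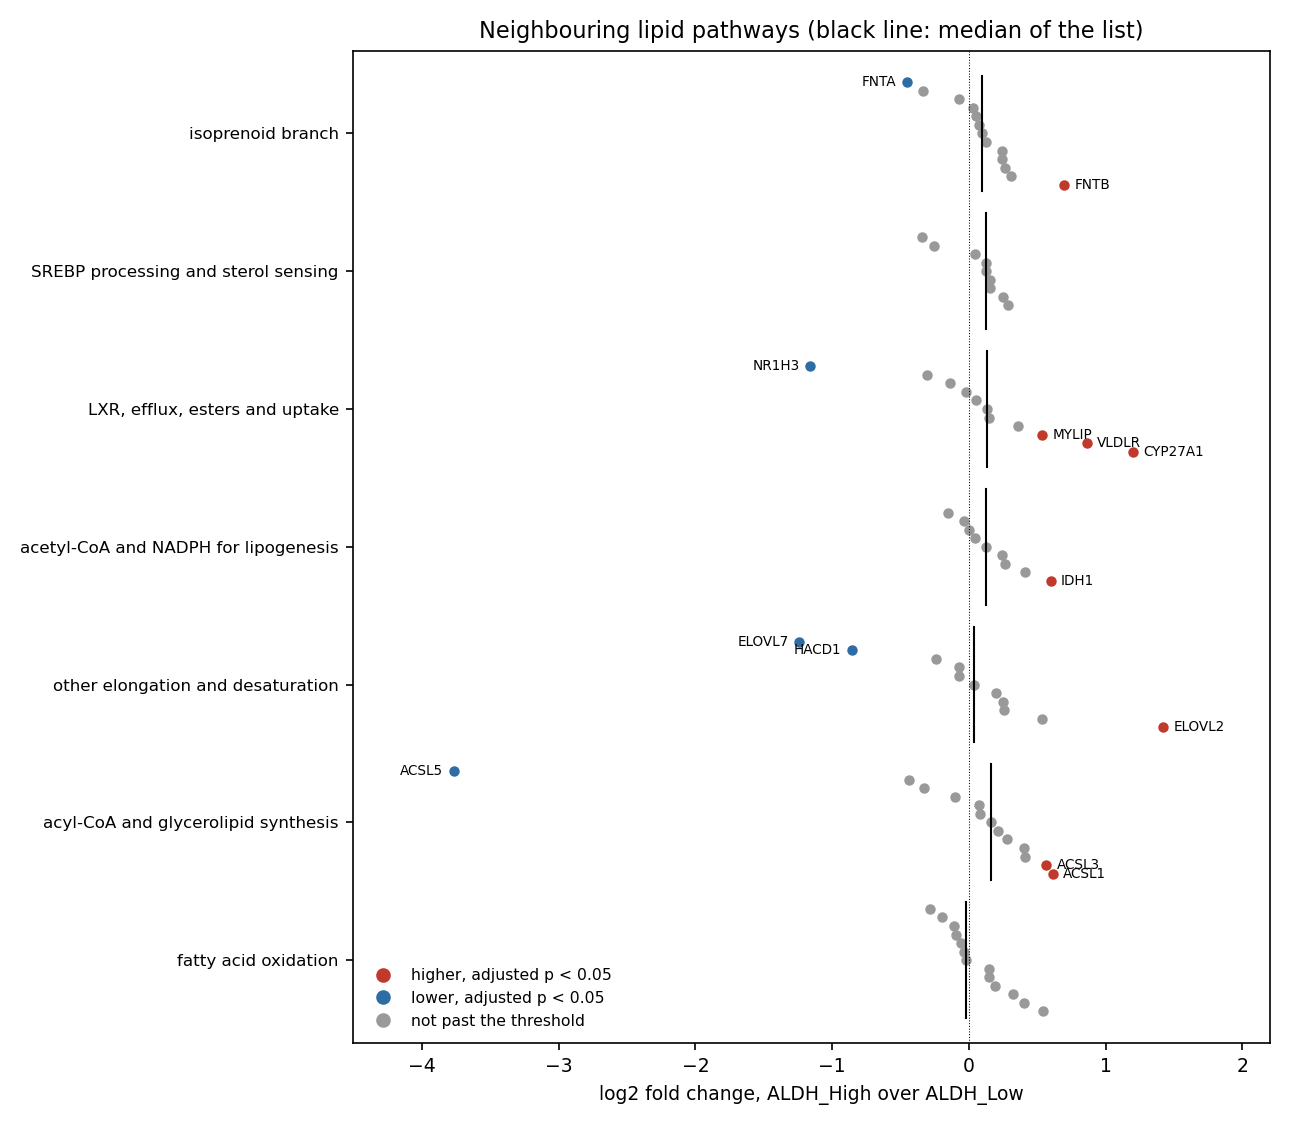
Log2 fold change of ALDH_High over ALDH_Low for the tested genes of 7 neighbouring lipid lists, with the median of each list as a black line and genes past the threshold named. Medians lie between -0.019 and 0.16, and ACSL5 at -3.77 is the farthest from 0.

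The other elongation and desaturation genes had 1 of 11 higher and 2 lower (median 0.036). ELOVL2, which acts after ELOVL5 on polyunsaturated fatty acids, rose from 0.757 ± 0.129 CPM in ALDH_Low to 2.04 ± 0.456 CPM in ALDH_High (SD, n = 3; log2 fold change 1.42, adjusted p 0.00997). ELOVL7 (-1.24, adjusted p 0.0300) and the dehydratase HACD1 (-0.85, adjusted p 0.0314) were lower. ELOVL7 lost its call without ALDH_High library 2 or 3 or any 1 of the ALDH_Low libraries (adjusted p up to 0.124), and HACD1 without ALDH_High library 2 or 3 or ALDH_Low library 1 or 3 (up to 0.133).

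Of 9 tested genes that supply acetyl-CoA and NADPH for lipogenesis, IDH1, the cytosolic isocitrate dehydrogenase, was higher (0.60, adjusted p 0.0333) and 8 did not pass (median 0.13); without any 1 of the ALDH_Low libraries IDH1 missed the threshold (adjusted p up to 0.126). ACLY, which cleaves citrate to acetyl-CoA, had 426 ± 13.5 and 413 ± 55.9 CPM (0.045, adjusted p 0.840). The isoprenoid branch had 1 of 13 higher and 1 lower (median 0.10), the 2 subunits of protein farnesyltransferase: FNTB had 40.9, 31.3 and 25.7 against 19.8, 21.4 and 19.1 CPM (0.70, adjusted p 0.0160), and FNTA 26.7, 28.0 and 28.9 against 36.8, 36.2 and 41.6 CPM (-0.45, adjusted p 0.0203). FNTB overlaps MAX on the opposite strand (log2 fold change 0.41) and the readthrough gene CHURC1-FNTB, so its reads are uncertain. FNTB missed the threshold without ALDH_Low library 1 or 3 (adjusted p up to 0.0682), and FNTA without ALDH_High library 2 or 3 or ALDH_Low library 1 or 3 (up to 0.0804).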

How the data were processed

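For 6 libraries, the files the authors deposited give counts per gene, as whole numbers, and TPM of the same genes. Per the labels' protocols, stranded mRNA libraries were made from total RNA; the submitters' processing notes name FastQC 0.11.3, STAR 2.5.1b, HTSeq 0.6.1, DESeq2 and GRCh38, with no role or order. The deposited counts were treated as estimated counts already rounded, since 133 to 177 genes per library had a count of 0 beside a TPM above 0; they were not rounded further. TPM as deposited by the authors sums to the same total in each library. Rows with an identifier but no gene name held 0.0213 to 0.0267% of counts and stayed in.

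Counts were filtered with filterByExpr, scaled by TMM and tested with edgeR 4.0.16 (glmQLFit, glmQLFTest, two-sided) in R 4.3.3, checked on simulated counts. Adjusted p is Benjamini-Hochberg over all genes tested, threshold 0.05. SE is the log2 fold change over the square root of F; 95% intervals use the fit's degrees of freedom. Alternatives used DESeq2 1.42.0, limma 3.58.1 on log2(TPM + 1) and log2(TPM + 0.1), other scalings and filters, a replicate block, and each library left out. No pair of libraries agreed within sampling noise (chi-square per degree of freedom 12.1 to 50.1 within groups). Positions are GENCODE 44. Medians over neighbours (within 2 Mb) and chromosomes take protein-coding genes whose mean CPM was 5 or more, matched by identifier (99.1% of tested genes). All 34 genes are named; from each other list, up to 3 genes per direction with the smallest p among those past the threshold are named with values, and ABCA1, ACLY and genes that overlap a named gene were added after their values were seen. The 34 genes and the lists were chosen with earlier results of these data known.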

Additional observations from a re-analysis of the deposited data

How the results depend on the processing

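Of the 28 genes not past the threshold, 25 passed in none of 15 alternatives; of the 6 that passed, 0 did so in all 15. Without a TPM filter in limma on log2(TPM + 1), and at an adjusted p below 0.01, 0 of the 34 passed (0 higher, 0 lower), and 1 did with a fold threshold added, a log2 fold change of 1 or more in either direction (1 higher, 0 lower). Leaving out 1 library at a time gave 1 to 8 past the threshold (0 to 3 higher, 1 to 5 lower). The median of the 34 then lay between -0.042 and 0.092. Over all genes, limma without the filter called 2006 (1155 higher, 851 lower), an adjusted p below 0.01 left 1930 (1060 higher, 870 lower) and the fold threshold 1958 (1004 higher, 954 lower). Limma with a mean TPM of at least 1 called 1047 lower at a pseudocount of 1 and 1051 at 0.1. With 1 library left out, 2488 to 4221 genes passed (1306 to 2172 higher, 1073 to 2049 lower, the fewest lower without ALDH_High library 2). Stricter thresholds call fewer genes by construction; the cause of the other moves was not tested.

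The isoprenoid branch had 0 higher in limma without the filter and 0 to 3 with a library left out, and 2 lower with upper-quartile factors, 0 lower in all 3 limma fits and 0 to 1 with a library left out. In limma without the filter the LXR list and the acetyl-CoA list each had 0 higher; the latter had 0 to 1 higher and 0 to 1 lower with a library left out. The other elongation list had 2 higher with the replicate block, 0 in all 3 limma fits and 1 to 2 without 1 library. In that list 1 was lower in each limma fit with the TPM filter, 0 without it, and 0 to 2 without 1 library. ELOVL2 and ELOVL7 had means of 0.577 and 0.629 TPM, below that filter, and the limma fits that used it did not test them. Acyl-CoA synthesis had 1 higher in each limma fit and 1 to 3 with a library left out, and 2 lower without the low-count filter and 2 with the replicate block. SREBP processing and fatty acid oxidation each had 0 to 1 lower with a library left out.

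The following genes, none of them past the threshold, turned sign. With upper-quartile factors, which moved the median of all genes to -0.062, MSMO1 was -0.049, SCAP -0.0037 and ACAT2 -0.047. SREBF1 was 0.00085 with DESeq2 size factors, 0.0034 without the low-count filter, 0.013 in DESeq2, and 0.0409 (pseudocount 1, with and without the filter) and 0.0414 (pseudocount 0.1) in limma. With 1 library left out, the ranges that crossed 0 were -0.047 to 0.30 (HMGCS1), -0.016 to 0.16 (IDI1), -0.12 to 0.23 (MSMO1), -0.16 to 0.035 (NSDHL), -0.30 to 0.11 (INSIG1), -0.21 to 0.051 (INSIG2), -0.11 to 0.14 (SREBF1), -0.18 to 0.031 (ACACA), -0.0052 to 0.29 (SCD) and -0.032 to 0.048 (ACAT2).

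The same replicate numbers occur in both groups, but nothing in the labels says that they pair libraries, so they are treated as unpaired. Deviations of same-numbered libraries correlated at 0.206, 0.159 and 0.0987, below the limit set for pairing in 1 of 3 cases. These values do not decide whether the libraries were paired. With the replicate block 6 of the 34 passed, 5 of them shared with the fit without it; NPC1 (adjusted p 0.0518) was replaced by HSD17B7 (adjusted p 0.0482), and MSMO1 was -0.013. The TPM ratios and their fits without a library were added after the data were seen. A single cell line, 3 libraries a group and reads without molecular identifiers limit these values.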
